A study of Mus musculus with 48 samples.

Results

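Astrocytes answer injury, infection and inflammation with a change of state, called reactive, in which a recurring set of genes is raised. The set holds secreted acute phase proteins, receptors for cytokines, lipids and matrix, and the intermediate filaments of the astrocyte skeleton. Lcn2 encodes lipocalin-2, a secreted protein that binds iron-carrying siderophores, and it is among the genes used most often as a sign of this state. Steroid hormones act on these cells through nuclear receptors. The glucocorticoid receptor, once bound by its ligand, enters the nucleus and binds response elements in DNA. In brain, glucocorticoids are known for restraining inflammatory genes.

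The levels of 10 genes were described here, of 20250 with a named probe. They are Lcn2, Serpina3n and C3 (secreted), Osmr, S1pr3 and Cd44 (receptors), Steap4 (a metalloreductase of the plasma membrane), and Gfap, Vim and Nes (intermediate filaments). All 10 were measured, by 25 of the 46174 probes, which were found by the gene symbol of the array's annotation. Lcn2 lies on mouse chromosome 2 (chr2:32384637-32387739, GRCm38.p6), which also holds Vim and Cd44, and the others on chromosomes 3 (Nes), 5 (Steap4), 11 (Gfap), 12 (Serpina3n), 13 (S1pr3), 15 (Osmr) and 17 (C3).

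Striatal neurons and astrocytes of C57Bl/6J mice were grown as separate primary cultures and exposed for 4 h to vehicle or to 1 of 5 steroid receptor agonists. Dexamethasone was used at 100 nM. Aldosterone, progesterone, dihydrotestosterone and estradiol were used at 200 nM. Messenger RNA was measured on 48 Illumina arrays, 4 in each of 12 groups. Neurons were taken from late embryos. Astrocytes were taken from pups of the first postnatal week, selected with an antibody to the glutamate transporter GLAST and grown in serum before a final day in the serum-free medium of the neurons. Cell type, age and culture protocol therefore cannot be told apart. Matched by value, each array chip held 1 cell type, and by that match the chip cannot be told apart from them either. The chip identifiers in the sample descriptions give another layout, with both cell types on a chip. The methods say that hybridization batches were balanced over the groups. Which layout was used is not known. The methods call the arrays of a group biological replicates. Neither they nor the labels say whether each came from a culture or litter of its own, and p-values measure the spread between these arrays.

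Neuron arrays vehicle 3 and dexamethasone 3 were left out, because the levels of known glucocorticoid targets in them went against their labels, so that 46 arrays were analysed. Fkbp5, a classical target, read 10.64 on vehicle array 3 and 9.85 on dexamethasone array 3, where the other arrays read 9.78 to 9.81 with vehicle and 10.50 to 10.85 with dexamethasone. Lcn2 follows the same pattern, as given below. The values are log2 signals. Of all probes, 61.1% had a mean under 7.5. This level was set here, without a measure of detection, and signals under it are called near background below. No detection call was used. Where every array of the lower group was under 7.5, a ratio was computed against 7.5 and is given as "at least". It uses the mean of the higher group without its error, so it is not a strict bound. Differences were tested with limma across all probes, with the Benjamini-Hochberg adjustment within each comparison and a threshold of FDR 0.01, and are given with the standard error (SE). A gene is represented by its brightest probe, and other probes are named where they differ.

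Defining markers went with the labels. The mean signal of 10 neuronal markers was 12.24 to 12.47 on the arrays of vehicle neurons and 8.47 to 8.58 on those of vehicle astrocytes. The mean of 10 astrocyte markers was 12.37 to 12.47 in vehicle astrocytes. It was also 11.02 to 11.16 in vehicle neurons, where only S100b was near background. Microglial markers were present in the astrocyte cultures, at a mean of 11.96 to 12.03 over 12 genes with only Ptprc near background, against 8.84 to 8.98 in vehicle neurons. Since a culture was measured as a whole, fewer cells of a type and less RNA per cell cannot be told apart.

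Sequences upstream of 3 genes are given first, because 1 rose with dexamethasone in astrocytes (Lcn2), 1 fell (S1pr3), and 1 carries the same kind of motif as Lcn2 and passed no test with any steroid (Serpina3n). Each is the 250 bases before the gene's start in RefSeq, build GRCm38.p6, printed 5′ to 3′ on the gene's strand. The Lcn2 stretch is chr2:32387740-32387989 (minus strand), that of Serpina3n chr12:104406458-104406707 (plus strand) and that of S1pr3 chr13:51408368-51408617 (plus strand). The start used for Serpina3n lies inside the gene's whole span, which begins at chr12:104406646. The last part of its stretch is thus within that span, and its distances below count from the start used. Capitals mark matches, on either strand, to the core of the glucocorticoid response element (ACANNNTGT), a Stat site (TTCNNNGAA), a C/EBP site (TTGCNNAA) or the NF-kB consensus.
Lcn2: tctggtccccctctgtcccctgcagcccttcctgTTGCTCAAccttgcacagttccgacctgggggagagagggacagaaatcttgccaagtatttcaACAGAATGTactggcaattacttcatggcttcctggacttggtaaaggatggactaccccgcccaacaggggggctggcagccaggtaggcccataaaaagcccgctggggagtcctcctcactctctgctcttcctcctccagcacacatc
Serpina3n: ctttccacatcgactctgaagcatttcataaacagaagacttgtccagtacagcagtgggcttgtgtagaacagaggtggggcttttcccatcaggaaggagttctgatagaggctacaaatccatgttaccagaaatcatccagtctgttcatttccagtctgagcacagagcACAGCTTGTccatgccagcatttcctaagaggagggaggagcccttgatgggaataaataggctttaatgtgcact
S1pr3: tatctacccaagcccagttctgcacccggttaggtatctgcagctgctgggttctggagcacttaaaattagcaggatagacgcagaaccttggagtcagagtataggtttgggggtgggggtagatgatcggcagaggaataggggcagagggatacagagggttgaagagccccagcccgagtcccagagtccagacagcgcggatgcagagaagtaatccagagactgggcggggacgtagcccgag
The Lcn2 stretch holds 1 core glucocorticoid element, ACAGAATGT, 152 to 144 bases before the start, and 1 C/EBP match, TTGCTCAA, 216 to 209 bases before it. The Serpina3n stretch holds the core ACAGCTTGT at 76 to 68 bases before the start. The S1pr3 stretch holds no match to any of the motifs. Among the 10 genes the core was found before 2 (Lcn2 and Serpina3n), and it was found in 5.91% of the 27025 promoters in the table. The full palindromic form of the element stood before none of the 10 genes and in 0.0037% of all promoters. C/EBP matches stood before Lcn2, C3 and Steap4 (9.55% of all promoters), a Stat match before Steap4 (7.18%) and NF-kB matches before Steap4 and Vim (3.75%). A match is a description of the letters and not a bound site.

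Before any steroid, 9 of the 10 genes were higher in astrocytes than in neurons, a comparison in which 32.4% of all probes were called in either direction. Filament genes were bright in astrocytes and clearly measured in neurons as well. Gfap, the classical astrocyte filament, read 16.44, 16.40, 16.37 and 16.29 in vehicle astrocytes and 11.68, 11.79 and 11.68 in vehicle neurons. The difference was 4.66 ± 0.12 (SE, limma, adjusted p = 7.11e-34). Vim, the filament of immature and migrating glia, differed by 4.82 ± 0.13 and Nes, a filament of neural progenitors, by 3.12 ± 0.13. Gfap and Vim in astrocytes lay close to the highest value in the whole table, 16.65, where an array has little room to show a further rise. A second Gfap probe read lower, 13.05 to 13.69 over the astrocyte arrays, and gave a difference of 4.26.

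The secreted products were higher in astrocytes as well. C3, the central protein of complement, read 15.04, 14.97, 14.81 and 15.02 in vehicle astrocytes and 7.27, 7.37 and 7.41 in vehicle neurons, where it was near background. The ratio was at least 176-fold (log2 difference 7.61 ± 0.11, limma, adjusted p = 2.59e-44). Lcn2 read 12.36, 12.31, 11.77 and 11.96 in astrocytes and 6.67, 6.75 and 6.69 in neurons, at least 24.3-fold (log2 difference 5.40 ± 0.14, limma, adjusted p = 3.65e-34). Serpina3n, a secreted inhibitor of serine proteases, had a mean of 15.10 ± 0.19 (SD, n = 4) in astrocytes and 10.37 ± 0.12 (SD, n = 3) in neurons, a difference of 4.73 ± 0.13. Unlike C3 and Lcn2, it was well measured in the neuron cultures.

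Among the receptors, Osmr, the chain that binds oncostatin M together with gp130, differed by 4.50 ± 0.15 and Cd44, the receptor for the matrix polymer hyaluronan, by 4.28 ± 0.13. S1pr3, a receptor for sphingosine-1-phosphate, was low in both cultures. Its signals were 7.94, 7.95, 7.83 and 7.5 in vehicle astrocytes and 6.94, 6.82 and 6.93 in vehicle neurons, at least 1.24-fold (log2 difference 0.91 ± 0.11, limma, adjusted p = 3.74e-10). Steap4, which reduces iron and copper, was near background everywhere, at 6.65 to 7.34 over the astrocyte arrays and 6.91 to 7.36 over the neuron arrays (difference -0.06 ± 0.11, adjusted p = 0.743). Nothing can be said here about a change in Steap4. The arrays of the 9 genes that passed did not overlap between the cultures, and neither did those of 39.0% of all probes. The 12 probes that did not pass the test were 6 of the 9 for Cd44, 2 of the 3 for Osmr, both for Steap4, and the second ones for S1pr3 and Vim.

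**Figure D1:**
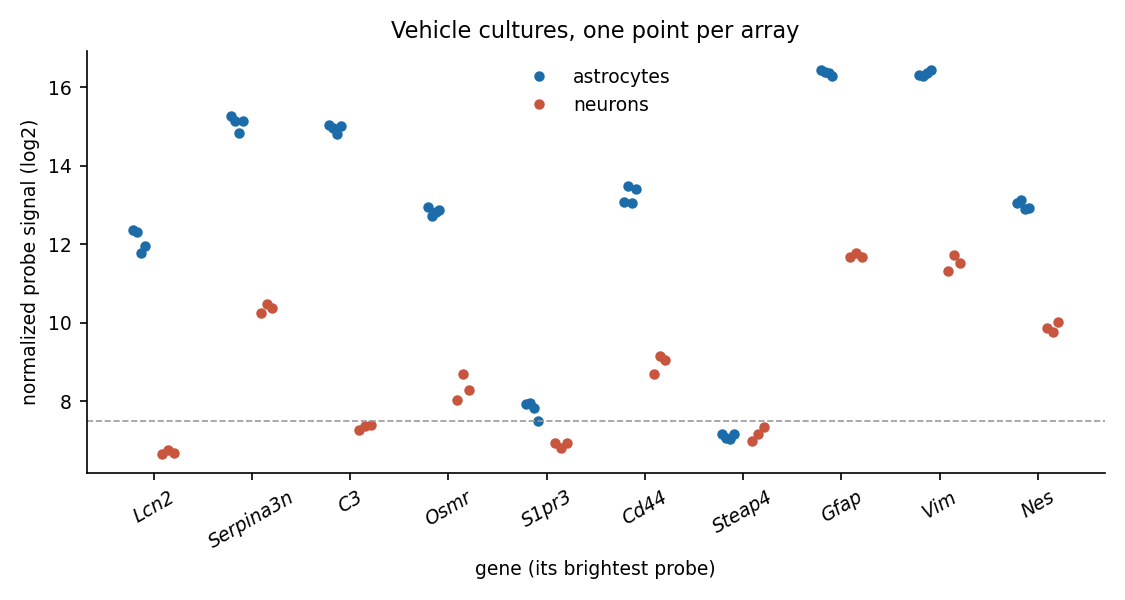
Normalized signal (log2) of the brightest probe of each gene on the 4 arrays of vehicle astrocytes (blue) and the 3 of vehicle neurons (red), 1 point per array, with the level of 7.5 dashed. Lcn2 sits between 11.77 and 12.36 in astrocytes and between 6.67 and 6.75 in neurons, while the Steap4 points of both cultures overlap under the line.

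Dexamethasone raised Lcn2 in astrocytes. The 4 treated arrays read 14.43, 14.41, 14.08 and 14.34, against 12.36, 12.31, 11.77 and 11.96 with vehicle. The groups did not overlap. The rise was 2.22 ± 0.13 on the log2 scale, or 4.64-fold (95% interval of the log2 difference 1.95 to 2.48, limma, adjusted p = 1.67e-18). Aldosterone, the ligand of the mineralocorticoid receptor, also raised it. Its arrays read 13.05, 12.97, 12.48 and 12.92, all above the vehicle arrays and all below those of dexamethasone. Arrays did not overlap between aldosterone and vehicle in 4.53% of all probes. The rise was 0.76 ± 0.13, or 1.69-fold (interval 0.49 to 1.02, limma, adjusted p = 2.15e-04). It missed the threshold when the pair of omitted neuron arrays was put back (limma, adjusted p = 0.0108), and with the methods' t-test (adjusted p = 0.425). Dexamethasone and aldosterone were given at different doses, and they share the vehicle arrays.

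The other steroids left Lcn2 within or close to the vehicle range. Progesterone arrays read 12.23, 12.38, 12.33 and 11.62, dihydrotestosterone arrays 12.19, 12.45, 12.41 and 12.29, and estradiol arrays 12.09, 12.10, 11.72 and 12.17. All 3 groups overlapped with vehicle and none passed the test. The order of the group means in astrocytes was dexamethasone (14.32), aldosterone (12.86), dihydrotestosterone (12.34), progesterone (12.14), vehicle (12.10) and estradiol (12.02). Neighbours in the last 4 places did not differ beyond the spread of their arrays.

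**Figure D2:**
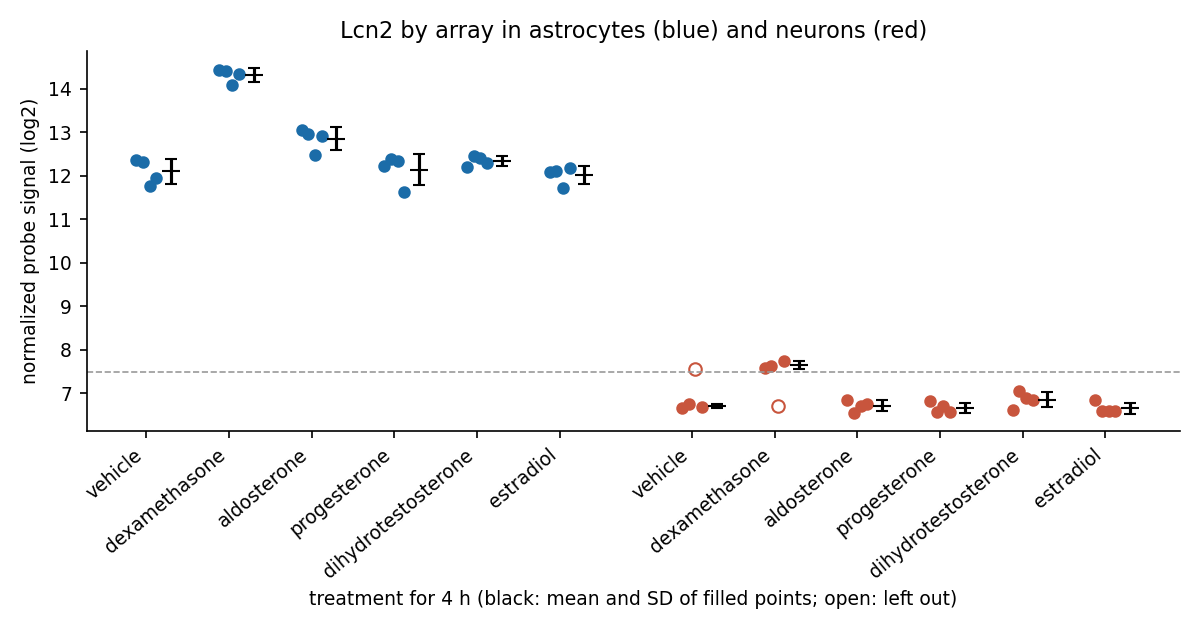
Normalized Lcn2 signal (log2) on each array for the 6 treatments in astrocytes (blue) and neurons (red), with the mean and SD of the arrays used in black, the arrays left out as open circles and the level of 7.5 dashed. Dexamethasone arrays of astrocytes lie at 14.08 to 14.43 and aldosterone arrays at 12.48 to 13.05, above the vehicle arrays at 11.77 to 12.36.

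S1pr3 moved the other way. Dexamethasone arrays of astrocytes read 7.09, 7.05, 7.05 and 6.84, all near background and all below the vehicle arrays at 7.5 to 7.95. The fall was -0.80 ± 0.10 (interval -1.0 to -0.60, limma, adjusted p = 3.08e-08). As the treated arrays were near background, the vehicle signal was at least 1.24-fold that with dexamethasone, and the size of the fall is not known beyond that. Aldosterone arrays read 7.28, 7.33, 7.01 and 7.44, again below every vehicle array (difference -0.54 ± 0.10, limma, adjusted p = 6.21e-04). Without aldosterone array 3 this difference was -0.46 and missed the threshold (limma, adjusted p = 0.0116). With the methods' t-test S1pr3 missed it for dexamethasone (adjusted p = 0.0391) and for aldosterone (adjusted p = 0.427). Progesterone arrays overlapped with vehicle at 7.34, 7.86, 7.48 and 7.35 (difference -0.30, adjusted p = 0.413). Those of dihydrotestosterone (7.61 to 7.88) and estradiol (7.49 to 7.77) lay within or at the edge of the vehicle range. A second S1pr3 probe, at 6.80 to 7.31 over the astrocyte arrays, did not pass the test with dexamethasone (-0.08) or with aldosterone (-0.10).

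**Figure D3:**
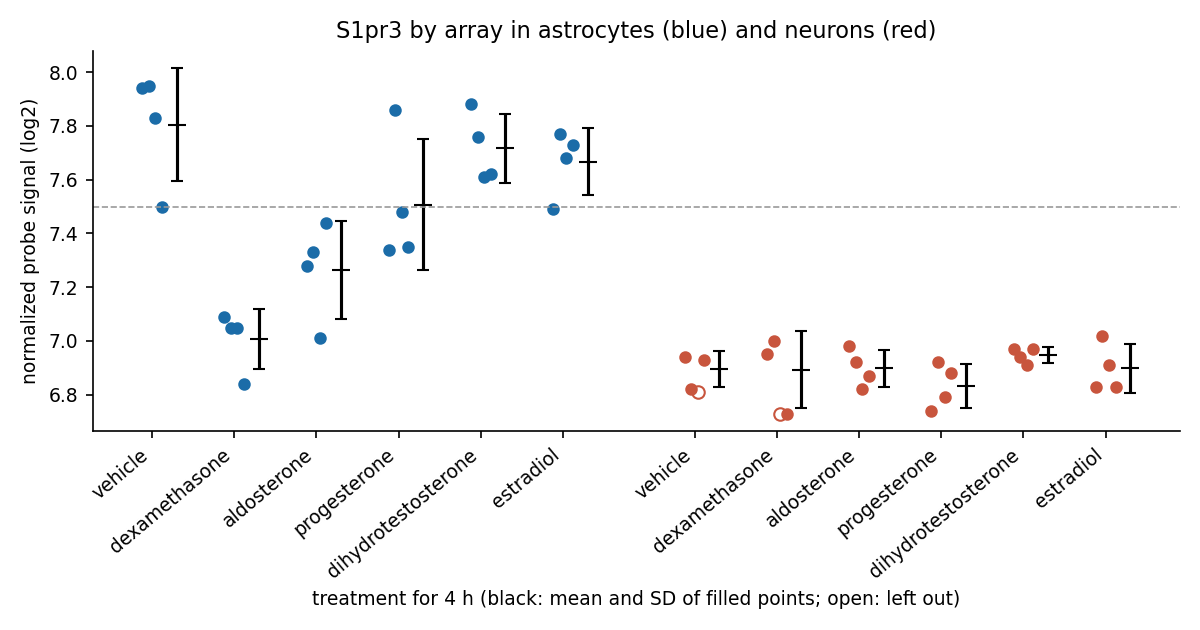
Normalized S1pr3 signal (log2) on each array for the 6 treatments in astrocytes (blue) and neurons (red), with the mean and SD of the arrays used in black, the arrays left out as open circles and the level of 7.5 dashed. With dexamethasone the astrocyte arrays fall to 6.84 to 7.09, near background, while vehicle arrays lie at 7.5 to 7.95.

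Lcn2 and S1pr3 were the only members called with dexamethasone in astrocytes, 2 of 10 where 3.55% of all probes were called. With aldosterone the same 2 genes were called, where 0.574% of all probes were called. The median difference of the 10 members with dexamethasone was -0.06, beside -0.01 over all probes. With progesterone, dihydrotestosterone and estradiol no member passed the test in limma, and at an unadjusted p under 0.05 there were 1, 0 and 0. For comparison, 0.0563% of all probes were called with progesterone, and 0 probes with dihydrotestosterone or estradiol (3375 and 2937 at an unadjusted p under 0.05).

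The signals of the other 8 genes stayed close to vehicle with dexamethasone, and their 95% intervals reached no further than a 1.51-fold change. These intervals do not bound the change of Steap4, which was near background. Nor do they bound a rise of Gfap or Vim, whose brightest probes lay near the top of the scale. Nes came nearest to a call. Its arrays read 12.68, 12.76, 12.60 and 12.56, all below the vehicle arrays at 13.06, 13.12, 12.89 and 12.92. The difference was -0.35 ± 0.12 (interval -0.60 to -0.10, limma, adjusted p = 0.107), and the second Nes probe gave -0.28. Arrays did not overlap in 7.94% of all probes in this comparison. C3 read 14.72, 14.73, 14.72 and 14.87 with dexamethasone, partly within the vehicle range (difference -0.20, interval -0.40 to -0.00094, adjusted p = 0.327). Serpina3n, with a core glucocorticoid element before its start, read 15.15, 15.32, 15.06 and 15.34 and overlapped with vehicle (difference 0.12, interval -0.13 to 0.37). The differences of Cd44 (-0.18), Osmr (-0.09), Gfap (-0.03), Steap4 (-0.01) and Vim (-0.01) had intervals across 0. For Gfap the second and dimmer probe, which is further from the top of the scale, gave 0.01. With aldosterone that probe read 13.40, 13.49, 13.48 and 13.69, above the vehicle arrays at 13.14, 13.15, 13.23 and 13.31, and did not pass the test. Arrays did not overlap between aldosterone and vehicle in 4.53% of all probes. The brightest Gfap probe had a mean of 16.34 with aldosterone and 16.38 with vehicle.

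**Figure D4:**
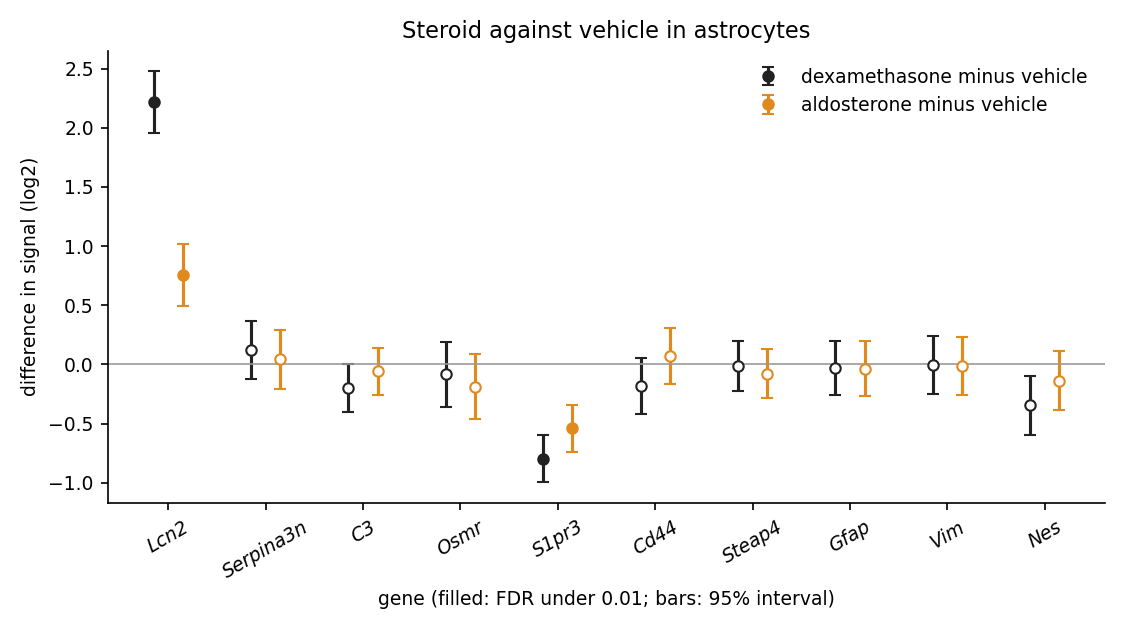
Difference from vehicle (log2) for the 10 genes in astrocytes with dexamethasone at 100 nM (black) and aldosterone at 200 nM (orange), with 95% intervals, filled where the adjusted p was under 0.01. Lcn2 stands at 2.22 and 0.76 and S1pr3 at -0.80 and -0.54, and the intervals of the other genes lie within 0.60 of 0.

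The 4 steroids at 200 nM were compared with one another in all 6 pairs. In astrocytes Lcn2 was higher with aldosterone than with progesterone by 0.72 ± 0.13 (limma, adjusted p = 1.48e-03, and 1.55e-03 when adjusted over all probes and the 6 pairs together). It was higher than with estradiol by 0.84 ± 0.13 (limma, adjusted p = 4.37e-05, and 9.80e-05 over the pairs). Neither call held with the methods' t-test (adjusted p = 0.966 against progesterone and 0.381 against estradiol). Against dihydrotestosterone the difference of 0.52 ± 0.13 (interval 0.26 to 0.78) did not pass (adjusted p = 0.0435), and it passed with the array number as a block (adjusted p = 0.005155) and without aldosterone array 3 (0.0053). The arrays of aldosterone lay above all arrays of each of the other 3. The share of all probes without such overlap was not computed for these pairs, so the separation is only a description. The call against progesterone was lost without aldosterone array 1 (adjusted p = 0.0185), 2 (0.0135) or 4 (0.0102), or progesterone array 4 (0.0421). S1pr3 was lower with aldosterone than with dihydrotestosterone (difference -0.45 ± 0.10, adjusted p = 9.14e-03), which did not hold over the pairs (0.0206). The S1pr3 call was lost without aldosterone array 1, 2 or 3 or any of the 4 dihydrotestosterone arrays. Without aldosterone array 3 the S1pr3 difference was -0.37 (limma, adjusted p = 0.1165), and Lcn2 was called in its place. In the other omissions that lost the S1pr3 call no member was called in that pair. Against estradiol S1pr3 differed by -0.40 ± 0.10 (adjusted p = 0.0351), which passed with the block (0.009359). Each pair that gave a call had 1 member called, where 0.156% (progesterone), 0.394% (dihydrotestosterone) and 0.385% (estradiol) of all probes were called. Between progesterone, dihydrotestosterone and estradiol no member passed in limma in the 3 pairs, where at most 0.026% of all probes were called (0.0217% between progesterone and estradiol). The intervals of the signal there left room for differences of up to 1.49-fold. Lcn2 was higher with dihydrotestosterone than with estradiol by 0.32 (interval 0.05 to 0.58, limma, unadjusted p = 0.0193, adjusted p = 0.997). The arrays of that pair did not overlap, and the share of all probes without overlap was not computed for it.

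In neurons Lcn2 was near background on every array used of 5 of the 6 treatments, at 6.54 to 7.05. With dexamethasone the 3 arrays used read 7.59, 7.62 and 7.75, against 6.67, 6.75 and 6.69 with vehicle, a difference of 0.95 ± 0.15 (limma, adjusted p = 1.70e-04) and a signal at least 1.11-fold higher. It was the only member called, where 0.117% of all probes were called. The arrays left out read 7.57 (vehicle 3) and 6.71 (dexamethasone 3), each within or next to the range of the other group. With all 48 arrays as labelled the difference was 0.50 and did not pass (limma, adjusted p = 0.997). On the arrays used it did not pass with the methods' t-test (adjusted p = 0.229). The omission was decided on glucocorticoid targets, so the neuron result is a description and not independent of it.

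Of the 10 astrocyte markers, 1 rose with dexamethasone in the neuron cultures and 9 did not pass (median 0.21). The 1 was Aldoc, a glycolytic enzyme of astrocytes, up 0.53 ± 0.11 (limma, adjusted p = 7.72e-03). The mean of the 10 was 11.21 to 11.29 on the treated arrays and 11.02 to 11.16 on the vehicle arrays, and 9 of 10 were above background in both. The part of astrocytes within the neuron cultures in the Lcn2 value was not tested. Of the other members, Serpina3n read 10.83, 10.60 and 10.60 with dexamethasone and 10.24, 10.47 and 10.39 with vehicle, without overlap, and did not pass (difference 0.31, adjusted p = 0.999). Gfap likewise did not overlap (11.99, 11.94 and 11.81 against 11.68, 11.79 and 11.68) and did not pass. Arrays did not overlap in 8.07% of all probes in this comparison. Cd44 with estradiol read 8.56, 8.54, 8.50 and 8.51, below the vehicle arrays at 8.71, 9.16 and 9.06 (difference -0.45 ± 0.13, limma, adjusted p = 0.999, unadjusted p = 8.71e-04). The share of all probes without overlap was not computed for estradiol. No member was called in neurons with aldosterone, progesterone, dihydrotestosterone or estradiol, where at most 0.00217% of all probes were called, or in any of their 6 pairs, where at most 0.00433% were. At an unadjusted p under 0.05 there were 1, 0, 0 and 1 members.

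The fitted effect of dexamethasone in astrocytes minus that in neurons passed the test for both genes, on values near background in neurons. For Lcn2 it was 1.27 ± 0.20 (limma, adjusted p = 2.24e-05), and 1.72 with all 48 arrays as labelled (adjusted p = 1.66e-06). It missed the threshold with the methods' t-test (adjusted p = 0.0178). Since Lcn2 was near background in vehicle neurons, its rise there is known only as at least 1.11-fold, and which culture had the larger rise cannot be read from these values. For S1pr3 the fitted difference was -0.79 ± 0.15 (limma, adjusted p = 6.10e-04, and 0.0655 with the methods' t-test). Neuron S1pr3 read 6.95, 7.0 and 6.73 with dexamethasone and 6.94, 6.82 and 6.93 with vehicle, all near background, so a fall there could not have been measured and the difference has no known size. Of all probes 1.00% were called in this comparison. For aldosterone the same difference was 0.74 ± 0.19 for Lcn2 and did not pass (adjusted p = 0.118), where 0.119% of all probes were called.

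Genes from the same biology were described from 6 lists, with at most 3 genes named in each. Their counts stand beside 3.55% of all probes called with dexamethasone and 0.574% with aldosterone, and several moved with the methods' t-test, as given in the closing section. Of the 5 further reactive astrocyte genes measured, all stood above the neuron level in vehicle astrocytes. The share of all probes called between these cultures, in either direction, was 32.4%. Of the same 5 genes, 1 rose with dexamethasone, 1 fell and 3 did not pass. Hspb1, a small heat shock protein, rose by 2.57 ± 0.13 (5.92-fold, limma, adjusted p = 1.91e-20) and with aldosterone by 0.89. Cxcl10, an interferon-induced chemokine, fell by 2.09 ± 0.13 (adjusted p = 3.78e-17) and with aldosterone by 1.25. Lcn2 and Hspb1 thus rose while Cxcl10 fell in the same cultures.

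Other lists held genes described as raised in the neuroinflammatory (A1) and the ischemic (A2) state. Of 10 A1 genes measured (12 listed) 2 rose and none fell with dexamethasone in limma (median difference 0.09). They were Fkbp5, a chaperone of the glucocorticoid receptor and a classical target of it, up 4.60 ± 0.10 (adjusted p = 1.15e-34), and Amigo2, a neuronal adhesion protein, up 0.97 ± 0.10. Of 12 A2 genes 3 rose and 2 fell (median -0.05). Slc10a6, a carrier of sulfated steroids, was near background with vehicle at 6.72 to 6.91 and rose to a mean of 10.16, at least 6.31-fold. Sphk1, the kinase that makes sphingosine-1-phosphate, rose by 2.71 ± 0.10 (6.53-fold, adjusted p = 2.43e-26). Ptx3, a secreted pentraxin, fell by 1.10 ± 0.11.

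Of 15 genes measured for gp130 cytokine and Stat3 signaling (16 listed), 3 rose and 1 fell with dexamethasone (median -0.07), and none passed with aldosterone in limma. Il6ra, the interleukin-6 receptor, rose by 0.83 ± 0.12 and Cntfr, the receptor for ciliary neurotrophic factor, by 0.75 ± 0.10 from near background (at least 1.22-fold). Osm, the ligand of Osmr, fell by 0.79 ± 0.09, while Osmr itself did not pass. Of 8 genes for inducers of the reactive state and their receptors, 2 fell with dexamethasone and also with aldosterone (median -0.11 and 0.10). The count with aldosterone was 1 without aldosterone array 1 or 2 or without vehicle array 1. Il1b fell by 1.06 ± 0.11 and Tnf by 0.93 ± 0.09 with dexamethasone, both to near background (at least 1.25-fold and 1.33-fold). Of 14 genes measured for partners of the members' products (16 listed), 1 fell and 13 did not pass (median 0.03). The 1 was S1pr2, a second receptor for sphingosine-1-phosphate, down 1.29 ± 0.08 (adjusted p = 3.63e-18). The median over all probes was -0.01 with dexamethasone and 0.01 with aldosterone.

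**Figure D5:**
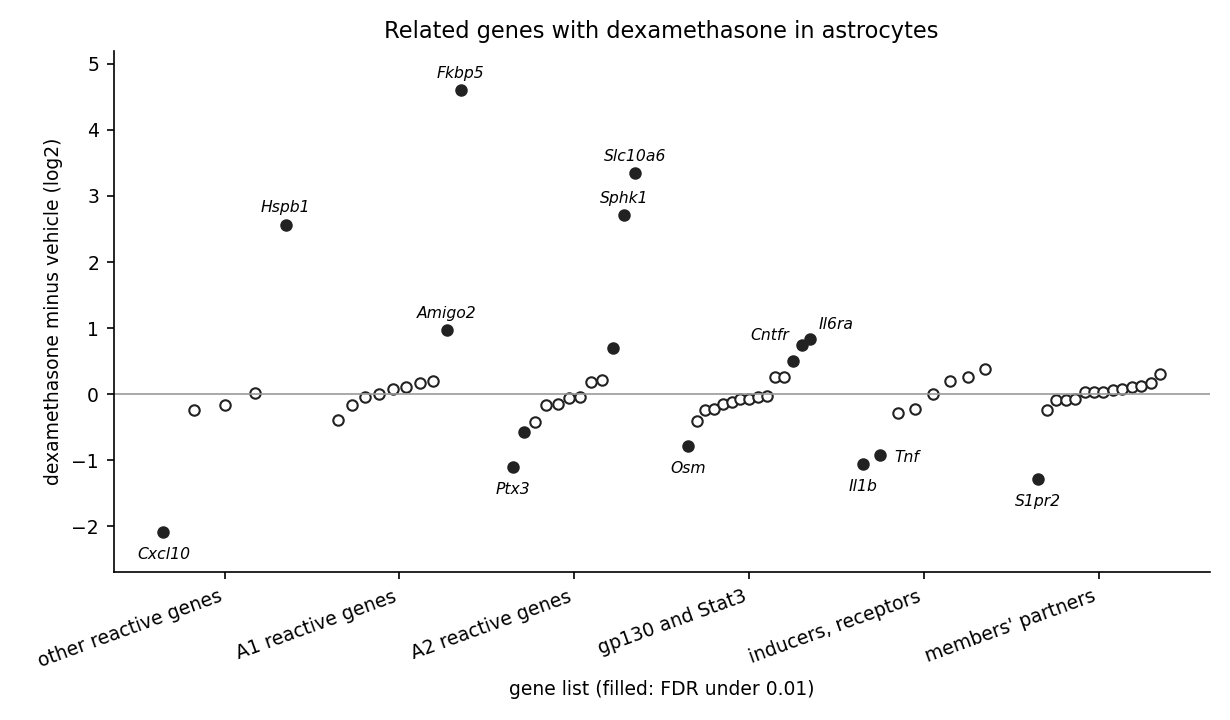
Difference between dexamethasone and vehicle in astrocytes (log2) for each measured gene of 6 lists, 1 point per gene, filled where the adjusted p was under 0.01, with up to 3 genes named per list. Most points lie near 0, with Fkbp5 at 4.60, Slc10a6 at 3.35, Sphk1 at 2.71, Hspb1 at 2.57, S1pr2 at -1.29 and Cxcl10 at -2.09 standing apart.

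Cell type markers also moved in the astrocyte cultures. Il1b, Tnf and Osm are known products of microglia. The mean of the 12 microglial markers was 11.86 to 11.98 with dexamethasone and 11.96 to 12.03 with vehicle, overlapping. Of the single markers 9 did not pass, C1qb rose by 0.59, and Cx3cr1 and P2ry12 fell by 1.04 and 0.58. With aldosterone the mean was 12.08 to 12.20, above vehicle. The mean of the 10 astrocyte markers was 12.58 to 12.72 with dexamethasone, above the vehicle arrays. This mean was carried by 3 genes, Glul, Fgfr3 and Aldh1l1, which rose by 1.35, 1.10 and 0.36, while 7 did not pass, and the median difference of the 10 was 0.02. The part of either cell type in these values, and in those of Lcn2, C3 and S1pr3, was not tested.

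The genes whose pattern over the 24 astrocyte arrays was most like that of Lcn2 were sought among 10443 genes with a mean of at least 7.5. The arrays share their treatments and chips, so the correlations are a description. The highest were Sphk1 (Pearson r = 0.970, Spearman rho = 0.888), Errfi1 (0.970 and 0.842), Fosl2 (0.968 and 0.855), Plin4 (0.964 and 0.853) and Pex11a (0.963 and 0.813). Sphk1 went from a mean of 8.80 with vehicle to 11.50 with dexamethasone and 9.48 with aldosterone. As it was picked by its likeness over these same arrays, this is not a separate likeness. The lowest were Rfx4 (r = -0.948, rho = -0.821), Hcar2 (-0.946 and -0.724), Sstr2 (-0.939 and -0.736), Tmem100 (-0.939 and -0.787) and Ccl3 (-0.933 and -0.673). Among the other members r with Lcn2 was 0.595 for Serpina3n, -0.716 for S1pr3, -0.591 for Nes and -0.331 for C3, and between -0.146 and 0.105 for the other 5.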

How the data were processed

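The values are the log2 signals of 46174 probes deposited by the authors after normalization between arrays, rounded to 2 decimals. Their methods name quality control, subtraction of background and quantile normalization, without saying how far the deposited table had passed through them, and no detection call was used. A table of non-normalized log2 values, also deposited, served only to find the chips. Of its 48 columns only 1 resembled most the sample whose identifier it carries. Matched by value, each of 8 chips held the 6 treatments of 1 cell type and 1 array number. The number of arrays limits the precision.

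Probes were named through the platform annotation, updated through RefSeq (GRCm38.p6), and 35725 probes had 1 symbol. Of several probes for a gene, the one with the highest mean stands for it. Group means of the 12 groups were fitted with limma 3.58.1 in R 4.3.3 (34 residual and 11.4 prior degrees of freedom), with no filter on dim probes, and p-values were adjusted by Benjamini-Hochberg over all probes within each comparison. Tables were made with Python 3.11.15 and pandas 2.3.3. The fit was also run on simulated data with independent noise. These data lacked the correlation between arrays of equal number described below, so they do not test the fit under it.

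The 10 genes, the lists and the arrays left out were chosen with earlier results of these data known. All members are named with every probe. In each list the genes past FDR 0.01 with dexamethasone in astrocytes were counted and at most 3 with the largest change named. The 5 genes most like Lcn2 and the 5 least like it were ranked by Pearson r. Beside the 6 lists of related genes, lists of markers for oligodendrocyte lineage, endothelial, and fibroblast and mural cells were measured. Their means in vehicle astrocytes were 8.77 to 9.20, 7.43 to 7.60 and 9.04 to 9.47.

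Within each group the labels carry array numbers of 1 to 4. Deviations from the group means correlated above 0.1 in all 60 pairs of arrays with equal numbers in astrocytes (r between 0.115 and 0.325) and in all 51 in neurons (0.130 to 0.564), so the numbers pair the arrays. By the match above, arrays of equal number in a cell type also shared a chip. A pairing of cultures and an effect of the chip therefore cannot be told apart. The main fit, which gave the errors and intervals above, does not use this pairing. In astrocytes it called 1638 probes with dexamethasone and 265 with aldosterone, where a fit blocked on the number called 2507 and 533. Blocking on the number in each culture type was an alternative. Others were all 48 arrays, the exchange of the omitted neuron arrays, quantile normalization within each cell type, a median shift, a filter on dim probes (mean of at least 7.5), fits of astrocytes and neurons apart, the methods' t-test, the probe of largest variance and leaving out each array. As run here, that t-test called 254 probes with dexamethasone and 11 with aldosterone in astrocytes. The paper reports more genes for both. Its methods name a t-test for drug against control only, so its use for pairs of steroids and between cell types is an extension made here.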

Additional observations from a re-analysis of the deposited data

Results flagged for a closer look

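Groups of 4 arrays were searched for an array far from the others, by Dixon's criterion, and 5 of 100 groups met it, where chance gives about 1 in 20. In neurons with estradiol, Lcn2 read 6.84 on array 1 and 6.59 to 6.60 on the others. In neurons with aldosterone, C3 read 6.82 on array 1 and 7.34 to 7.40 on the others. Both lie near background. In astrocytes with dihydrotestosterone, Serpina3n read 14.89 on array 1 and 14.99 to 15.01 on the others. In astrocytes with dexamethasone, array 4 was apart for C3, at 14.87 against 14.72 to 14.73, and for S1pr3, at 6.84 against 7.05 to 7.09.

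The fitted effect of dexamethasone in astrocytes minus that in neurons passed the test for Lcn2 (1.27, limma, adjusted p = 2.24e-05) and for S1pr3 (-0.79, limma, adjusted p = 6.10e-04), and for neither with the methods' t-test (adjusted p = 0.0178 and 0.0655). Lcn2 in vehicle neurons and S1pr3 in neurons were near background, so these differences have no known size.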

How the results depend on the processing

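No called difference changed sign under any alternative that was run. A count that stayed above 0 and changed little was taken as unmoved, and such small changes are not all listed. The filter, for example, also takes S1pr3 out of the comparison of the vehicle cultures. The counts of members called were as in the report when the omitted neuron arrays were exchanged (28 of 28 comparisons) and with the probe of largest variance (28 of 28). With all 48 arrays as labelled the count fell from 2 to 1 for aldosterone in astrocytes, from 1 to 0 for dexamethasone in neurons and from 1 to 0 for aldosterone against progesterone in astrocytes. The filter on dim probes, which drops S1pr3, left 1 of 2 for dexamethasone and for aldosterone in astrocytes, 1 of 2 for the difference in the dexamethasone effect between cell types, and 0 for aldosterone against dihydrotestosterone. Separate fits gave 1 for aldosterone in astrocytes and 0 for aldosterone against progesterone and against dihydrotestosterone. The last of these was also 0 with quantile normalization within each cell type and with the median shift. The replicate block gave 2 in place of 1 for aldosterone against dihydrotestosterone (Lcn2 and S1pr3) and against estradiol, and moved no other count of members. The methods' t-test with the Benjamini-Hochberg adjustment left 1 member for dexamethasone in astrocytes and 0 for aldosterone in astrocytes, dexamethasone in neurons, the difference between cell types, and all 3 pairs with aldosterone. Leaving out each array gave 1 to 2 members for aldosterone in astrocytes and 0 to 1 for aldosterone against progesterone and against dihydrotestosterone. In the last of these the 1 was Lcn2, and not S1pr3, without aldosterone array 3. Of the 12 counts of called genes in the related lists (6 lists, dexamethasone and aldosterone in astrocytes), the methods' t-test moved 6. With dexamethasone it left 1 of 2 further reactive genes, 1 of 2 A1 genes and 3 of 5 A2 genes, and with aldosterone 0 of 2 further reactive genes, 0 of 3 A2 genes and 0 of 2 inducers. The filter removed both called inducers with either steroid, separate fits left 1 inducer with aldosterone, and the block added 1 partner with aldosterone. Leaving out an array gave 1 to 2 inducers and 0 to 1 partners with aldosterone, the latter without aldosterone array 4. It also gave 4 to 5 A2 genes with dexamethasone, which was taken as unmoved. Apart from the filter, which removes genes by construction, the cause of these changes was not tested. Steap4 in both cultures, S1pr3 and C3 in neurons, S1pr3 in astrocytes with dexamethasone or aldosterone, and Lcn2 in neurons without dexamethasone lie at or near background, which limits what can be measured.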
